A study of Mus musculus with 6 samples.

Results

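The genes described here encode the heat shock proteins and the chaperones, folding enzymes and regulators of the unfolded protein response, as transcribed in mouse ventricles that carry extra miR-499. The list holds 45 genes, and 42 of them could be read, of 19938 genes with a value in the series. For each gene the probe set was taken that carried exactly 1 gene symbol and had the highest mean log2 value over the 6 mice. Hspa1b, Hsp90ab1 and Hsf1 had no such probe set and are not analysed here. Of the 42 genes, 34 had 1 probe set to choose from and 8 had several.

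Chaperones bind proteins that are not folded and keep them from clumping while they reach their final shape. When misfolded proteins accumulate in the cytosol, heat shock factors bind heat shock elements in promoters and raise the transcription of Hsp70, Hsp90, Hsp110, J-domain and small heat shock protein genes. In the endoplasmic reticulum (ER), the sensors Ire1, Atf6 and Perk act through Xbp1, cleaved Atf6 and Atf4 on ER chaperones and on genes of the integrated stress response. Heart muscle holds large amounts of several small heat shock proteins, which bind desmin, actin and titin in the sarcomere.

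The series compared the ventricles of 3 miR-499 transgenic mice of line TG-17 with those of 3 wild-type (WT) littermates, all at postnatal day 17 and with no treatment. The transgene puts the mouse pre-miR-499 region under the alpha-myosin heavy chain (Myh6) promoter, which is active in heart muscle cells, and the mice were made by injection into FVB/NCrl embryos. TG-17 is a single founder line, so its insertion site and the effect of miR-499 cannot be told apart, and whole ventricle holds other cells beside muscle. RNA of each mouse was hybridised to 1 Affymetrix mouse gene array, and the values are log2 of a signal that the authors corrected for background, normalized between arrays and summarised per probe set with RMA.

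The Mir499 probe set checked the labels. It read 9.31, 9.33 and 8.87 in TG-17 mice, against 5.48, 5.34 and 5.68 in WT mice, 12.7-fold higher in TG-17 with an adjusted p of 0.00772 from limma. Arrays correlated at 0.990 to 0.994 across probe sets, and none stood apart. The 7 ventricular muscle markers averaged 13.78 to 13.80 in TG-17 and 13.75 to 13.78 in WT. Atrial and smooth muscle markers and immediate early genes averaged lower in TG-17. The 4 atrial markers averaged 8.72 to 8.77 in TG-17 and 9.10 to 9.30 in WT, the 4 smooth muscle markers 9.03 to 9.20 in TG-17 and 9.27 to 9.50 in WT, and the 8 immediate early genes 8.001 to 8.06 in TG-17 and 8.35 to 8.55 in WT. All 4 genes were lower in TG-17 in the atrial and in the smooth muscle list, and 7 of 8 in the immediate early list. The 4 endothelial markers averaged 10.75 to 10.78 in TG-17 and 10.74 to 10.79 in WT, the 6 fibroblast markers 11.79 to 11.85 in TG-17 and 11.76 to 11.80 in WT, and the 4 leukocyte markers 7.71 to 7.74 in TG-17 and 7.76 to 7.83 in WT. The part of these shifts in the values below was not tested. Fewer cells of a type and less RNA per cell cannot be told apart in whole ventricle.

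Of the 42 heat shock and unfolded protein genes, none passed the cut-offs of the comparison. The looser cut-off of the study was a log odds B above 0, and the highest B among the 42 was -1.69, for Pdia3. Over all probe sets, 0.366% were called at B above 0 and 0.00562% at an adjusted p under 0.05. The adjusted p of the 42 genes, from limma over all probe sets, lay between 0.228 and 0.998. The differences were small, the largest being 1.52-fold higher in TG-17 for Hsph1 and 1.12-fold lower in TG-17 for Chac1. The values below are therefore descriptions of direction and size, and none of them is a called change.

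The direction was mostly the same. The TG-17 mean exceeded the WT mean for 36 genes and fell short of it for 6. The median of the 42 log2 fold changes was 0.14, against -0.02 over all genes. At an unadjusted p under 0.05, 13 genes were higher in TG-17 and 0 were lower. Over all genes, 6.65% were higher in TG-17 at that p and 8.76% were lower, while 13 of 42 is 31.0%. The 13 genes were Hspa4, Hsph1, Dnaja1, Dnajb5, Hspe1, Hspb3, Hspb7, Hspb8, Pdia3, Pdia4, Manf, Xbp1 and Ddit3. In 16 genes all TG-17 mice lay above all WT mice, and in 1 gene, Chac1, all lay below, where 12.2% of all genes did not overlap with TG-17 higher and 13.6% with TG-17 lower. Of the 13 genes, Hsph1 and Dnaja1 overlapped between the groups and 11 did not.

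**Figure D1:**
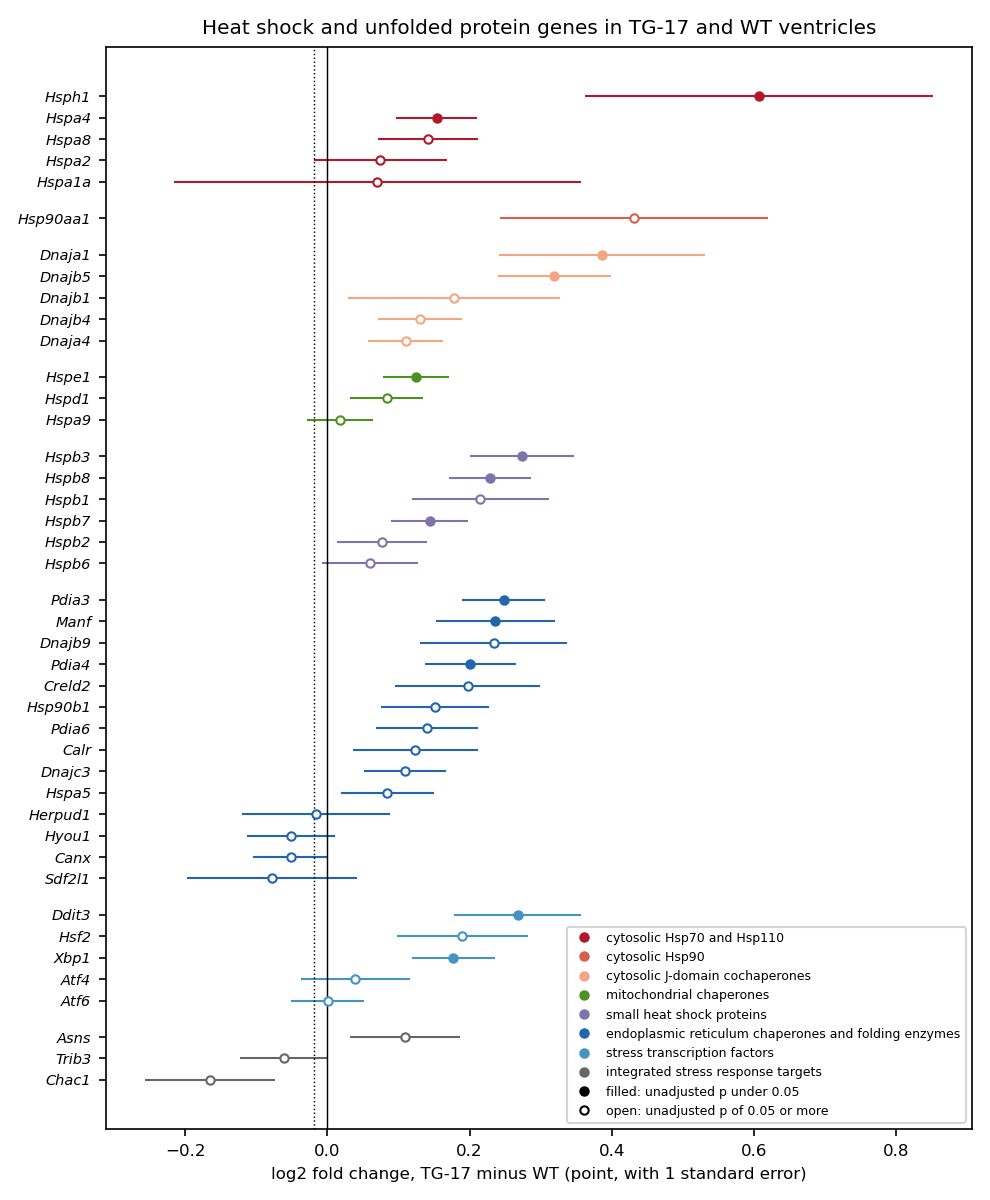
The log2 fold change of TG-17 minus WT (horizontal axis) is plotted for each of the 42 genes by subgroup, with 1 standard error from limma (3 mice per group). Filled points had an unadjusted p under 0.05, the dotted line is the median of all genes at -0.02, and 36 of the 42 points lie above 0.

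The level of a gene bore on these counts. In the deposited values, the median log2 fold change was -0.06 for the 9093 genes with a mean below 7 and 0.05 for the 4013 genes with a mean of 9 or above. Of those 4013 genes, 72.6% had a higher mean in TG-17 and 17.8% were higher at an unadjusted p under 0.05. Of the 42 genes, 29 had a mean of 9 or above, and 34.5% of them were higher at that p, with a median of 0.14. The other 13 genes had a median of 0.11, and 23.1% of them were higher at that p.

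A second quantile normalization, which gives all 6 arrays the same distribution, reduced this slope over genes. The median of the 9093 genes with a mean below 7 was then -0.02, and 44.1% of them were higher in TG-17. The median of the 4013 genes with a mean of 9 or above was then -0.0004 and 49.8% of them were higher in TG-17. The 42 genes then had a median of 0.07, with 34 higher and 8 lower in TG-17. At an unadjusted p under 0.05, 7 of them were higher (16.7%), against 5.53% of all genes, and 0 were lower. These 7 were Dnajb5, Hspb3, Hspb8, Pdia3, Pdia4, Manf and Ddit3. Of all genes within the range of means of the 42, 7.30% were then higher at that p, and of those with a mean of 9 or above 7.80%. Among the 42, the share was 13.8% of the 29 genes with a mean of 9 or above and 23.1% of the other 13. The source of the slope in the deposited values was not tested.

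**Figure D2:**
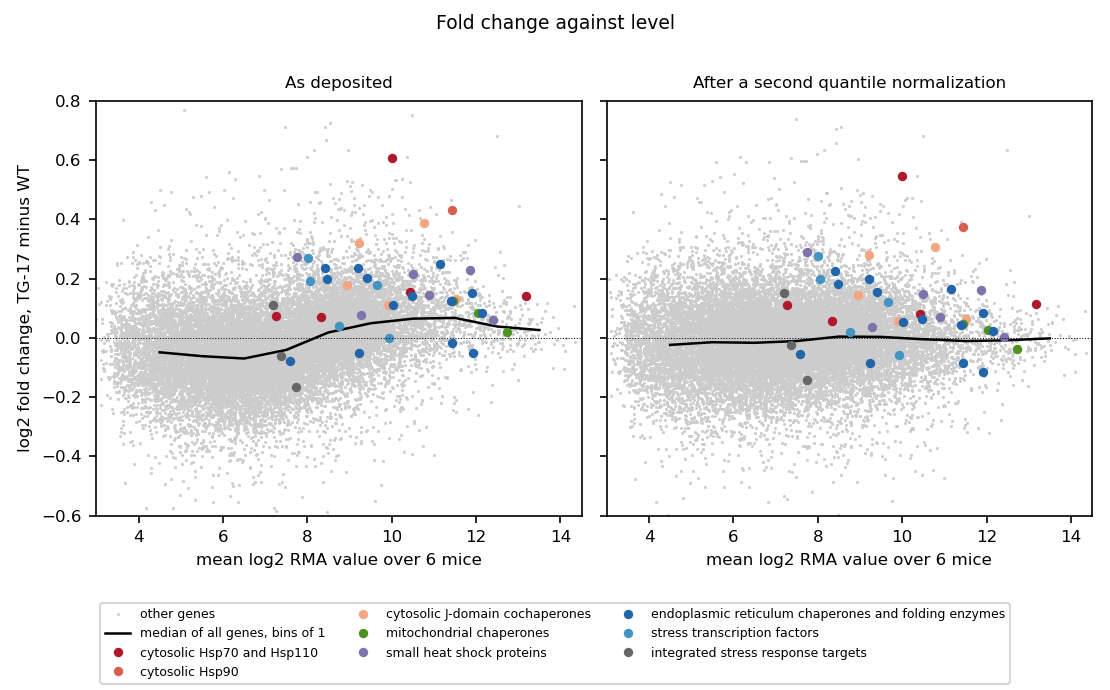
The log2 fold change of TG-17 minus WT (vertical axis) is plotted against the mean log2 value over the 6 mice for all genes (grey) and for the 42 genes (colours by subgroup), as deposited (left) and after a second quantile normalization (right). The black line is the median of all genes in bins of 1. It climbs above 0 for high values on the left and is closer to flat on the right. Genes beyond the axes are not drawn.

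The promoters of these genes were searched for the elements through which the pathways act. Of the 45 listed genes, 36 had a RefSeq promoter window, from 250 bases before to 50 after the start of the gene in GRCm38.p6. Both strands were searched with fixed letters, where N is any base. A match is a description of the letters and not a bound site. The heat shock element of 3 units, GAANNTTCNNGAA, was in the windows of Hspd1, Hspe1 and Hsph1, and in 0.603% of all 32851 windows. The element of 2 units, GAANNTTC, which is part of the longer one, was in those of 12 listed genes and in 7.86% of all windows. The windows of Hspa1a and Hspa1b held it in the same letters. Hspe1 and Hspd1, the mitochondrial chaperonin pair, lie head to head and share 1 stretch with overlapping matches, read here on both strands. The sites are shown because the Hsp70 copies and the chaperonin pair each share theirs, and that of Hspb1 as 1 of the 2 in its window. The capitals mark the heat shock element.
Hspa1a, chr17:34972223-34972290, minus strand: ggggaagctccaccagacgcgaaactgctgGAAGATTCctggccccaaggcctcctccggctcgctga
Hspa1b, chr17:34959305-34959372, minus strand: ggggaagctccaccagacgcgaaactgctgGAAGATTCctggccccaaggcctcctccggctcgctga
Hspb1, chr5:135887792-135887859, plus strand: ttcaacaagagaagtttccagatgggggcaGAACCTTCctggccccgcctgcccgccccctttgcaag
Hspe1, chr1:55088056-55088084, plus strand: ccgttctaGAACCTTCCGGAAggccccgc
Hspd1, chr1:55088051-55088079, minus strand: gccttccgGAAGGTTCTAGAAcggaccgt

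The ER stress element, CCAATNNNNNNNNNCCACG, to which Atf6 and its partner NF-Y bind, was in the windows of 7 listed genes (Calr, Canx, Creld2, Dnajc3, Hsp90b1, Hspa5 and Pdia6) and in 0.119% of all windows. The second form, ATTGGNCCACG, was in that of Herpud1 and in 0.0365% of all windows. The capitals mark the element, which in Creld2 and in the site shown for Hsp90b1 runs on the strand opposite to the gene.
Hspa5, chr2:34771995-34772073, plus strand: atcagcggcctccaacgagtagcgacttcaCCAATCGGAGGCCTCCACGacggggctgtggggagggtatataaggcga
Pdia6, chr12:17266461-17266539, plus strand: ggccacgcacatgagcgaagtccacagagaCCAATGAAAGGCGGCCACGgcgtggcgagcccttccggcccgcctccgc
Dnajc3, chr14:118937797-118937875, plus strand: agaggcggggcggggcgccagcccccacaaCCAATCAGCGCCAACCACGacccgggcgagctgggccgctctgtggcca
Creld2, chr15:88819490-88819568, plus strand: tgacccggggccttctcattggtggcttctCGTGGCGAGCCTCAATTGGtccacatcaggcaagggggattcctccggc
Hsp90b1, chr10:86705503-86705581, minus strand: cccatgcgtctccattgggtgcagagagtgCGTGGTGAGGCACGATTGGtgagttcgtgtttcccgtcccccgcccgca
Herpud1, chr8:94386347-94386417, plus strand: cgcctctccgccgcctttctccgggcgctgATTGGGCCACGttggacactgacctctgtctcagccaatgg

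The core of the C/EBP-ATF response element, TGATGNAA, through which Atf4 acts, was in the windows of Asns, Chac1, Herpud1 and Trib3 and in 3.97% of all windows. The capitals mark that core, which in Chac1 runs on the strand opposite to the gene.
Asns, chr6:7693210-7693262, minus strand: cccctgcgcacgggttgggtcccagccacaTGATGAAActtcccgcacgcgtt
Chac1, chr2:119351019-119351086, plus strand: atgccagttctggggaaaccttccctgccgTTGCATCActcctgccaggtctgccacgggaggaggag

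The cytosolic chaperones had the widest differences. All 11 cytosolic genes read had a higher mean in TG-17. Their log2 fold changes ran between 0.07 and 0.61 around a median of 0.15, and 4 of them were higher at an unadjusted p under 0.05. After the second quantile normalization the median was 0.11, and 1 gene, Dnajb5, was higher at that p. In the Hsp70 and Hsp110 group, 2 of 5 genes had an unadjusted p under 0.05. Among the J-domain proteins, which hand clients to Hsp70 and drive its ATP cycle, it was 2 of 5. As deposited, 6.65% of all genes and 17.8% of those with a mean of 9 or above were higher at that p. After the second quantile normalization these shares were 5.53% and 7.80%.

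Hsph1 encodes Hsp110, a nucleotide exchange factor of Hsp70, and had the largest log2 fold change of the 42 genes. It read 9.90, 10.32 and 10.71 in TG-17 mice, against 9.33, 9.84 and 9.94 in WT mice. Its log2 fold change was 0.61 ± 0.24 (SE from limma, 3 mice per group here and below), with an unadjusted p of 0.0466. The lowest TG-17 mouse lay below the highest WT mouse, so that the groups overlapped. Hspa4, a second member of the Hsp110 family, read 10.43, 10.51 and 10.55 in TG-17 mice and 10.34, 10.30 and 10.39 in WT mice, without overlap. Its log2 fold change was 0.15 ± 0.06, with an unadjusted p of 0.0342.

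Hspa1a, the stress-induced Hsp70, had TG-17 values on both sides of the WT values. It read 7.73, 8.47 and 8.90 in TG-17 mice, against 8.15, 8.41 and 8.33 in WT mice. The TG-17 mice thus held both the lowest and the highest value, and the log2 fold change was 0.07 ± 0.29. Hspa1a and Hspa1b are nearly identical copies, and 1 probe set carried both symbols. That probe set read 9.45, 10.20 and 11.09 in TG-17 mice and 9.34, 10.06 and 9.82 in WT mice, a log2 fold change of 0.51 ± 0.42 with an unadjusted p of 0.271. The signal of these copies on the array cannot be assigned with certainty to either gene.

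Hspa8, the constitutive Hsp70 that also takes clathrin coats apart, read 13.13, 13.29 and 13.30 in TG-17 mice and 13.04, 13.10 and 13.17 in WT mice, with overlap. Its log2 fold change was 0.14 ± 0.07, with an unadjusted p of 0.0889. Hspa2, the testis-enriched Hsp70, had a log2 fold change of 0.07. Hsp90aa1, the inducible cytosolic Hsp90 that matures kinases and steroid receptors, read 11.32, 11.66 and 11.96 in TG-17 mice and 10.95, 11.32 and 11.38 in WT mice. TG-17 mouse 1 lay within the WT values and the other TG-17 mice above them. The log2 fold change was 0.43 ± 0.19, with an unadjusted p of 0.0609, and the other 2 probe sets of Hsp90aa1 gave 0.42 and 0.51.

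Among the J-domain genes, Dnajb5 had the smallest spread relative to its difference. It read 9.36, 9.34 and 9.45 in TG-17 mice, against 8.93, 9.07 and 9.19 in WT mice. All TG-17 mice lay above all WT mice, and the log2 fold change was 0.32 ± 0.08, with an unadjusted p of 0.00656 and an adjusted p of 0.232 from limma. Dnaja1, a farnesylated Hsp70 partner, read 10.70, 11.01 and 11.19 in TG-17 mice and 10.40, 10.63 and 10.72 in WT mice, with a log2 fold change of 0.39 ± 0.15 and an unadjusted p of 0.0365. TG-17 mouse 1 lay just below the highest WT mouse. Other probe sets of Dnaja1 had the opposite sign, with -0.05 ± 0.09 for the one numbered at the gene itself and -0.19 ± 0.09, at an unadjusted p of 0.0692, for one that also carries the symbol Mir207.

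Dnajb1, the classical inducible Hsp40, read 8.85, 8.95 and 9.31 in TG-17 mice and 8.65, 9.02 and 8.90 in WT mice. Its groups overlapped, and the log2 fold change was 0.18 ± 0.15. Dnajb4 read 11.53, 11.56 and 11.64 in TG-17 mice and 11.39, 11.45 and 11.51 in WT mice, without overlap and with a log2 fold change of 0.13. Dnaja4 had a log2 fold change of 0.11 and did not overlap either.

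**Figure D3:**
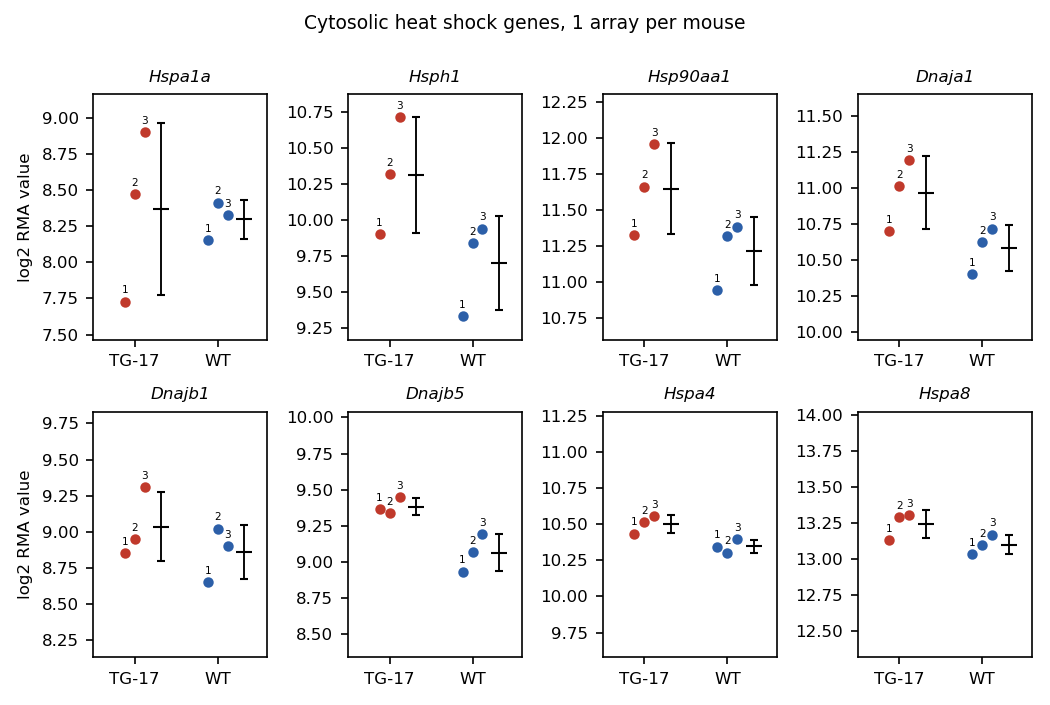
Log2 RMA values (vertical axis, each panel spanning the same range of log2 units) of 8 cytosolic chaperone genes are plotted for the 3 TG-17 mice (red) and the 3 WT mice (blue), numbered by mouse, with the mean and SD in black. Dnajb5 and Hspa4 do not overlap, while Hspa1a, Hsph1, Hsp90aa1, Dnaja1 and Dnajb1 spread widely within each group.

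The inducible cytosolic genes also varied most between mice of the same group. The pooled SD within groups was 0.43 for Hspa1a, 0.37 for Hsph1, 0.28 for Hsp90aa1, 0.22 for Dnajb1 and 0.21 for Dnaja1, the 5 highest of the 42 genes. Over the 4013 genes with a mean of 9 or above the median SD was 0.05 and the 95th percentile 0.12. Over all genes the median was 0.08 and the 95th percentile 0.20. In all 5 genes TG-17 mouse 1 was the lowest and TG-17 mouse 3 the highest of the TG-17 mice, and WT mouse 1 was the lowest WT mouse.

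That order ran through much of the list. TG-17 mouse 1 was the lowest TG-17 mouse in 28 of the 42 genes and TG-17 mouse 3 the highest in 30. WT mouse 1 was the lowest WT mouse in 27 genes and WT mouse 3 the highest in 27. Over all 19938 genes the counts were 6590, 7033, 6194 and 6719. Without TG-17 mouse 3 the log2 fold change of Hspa1a was -0.20, and without TG-17 mouse 1 it was 0.39. Hsph1 lay between 0.41 and 0.81 when each mouse was left out in turn, and had an unadjusted p under 0.05 in 2 of those 6 fits.

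**Figure D4:**
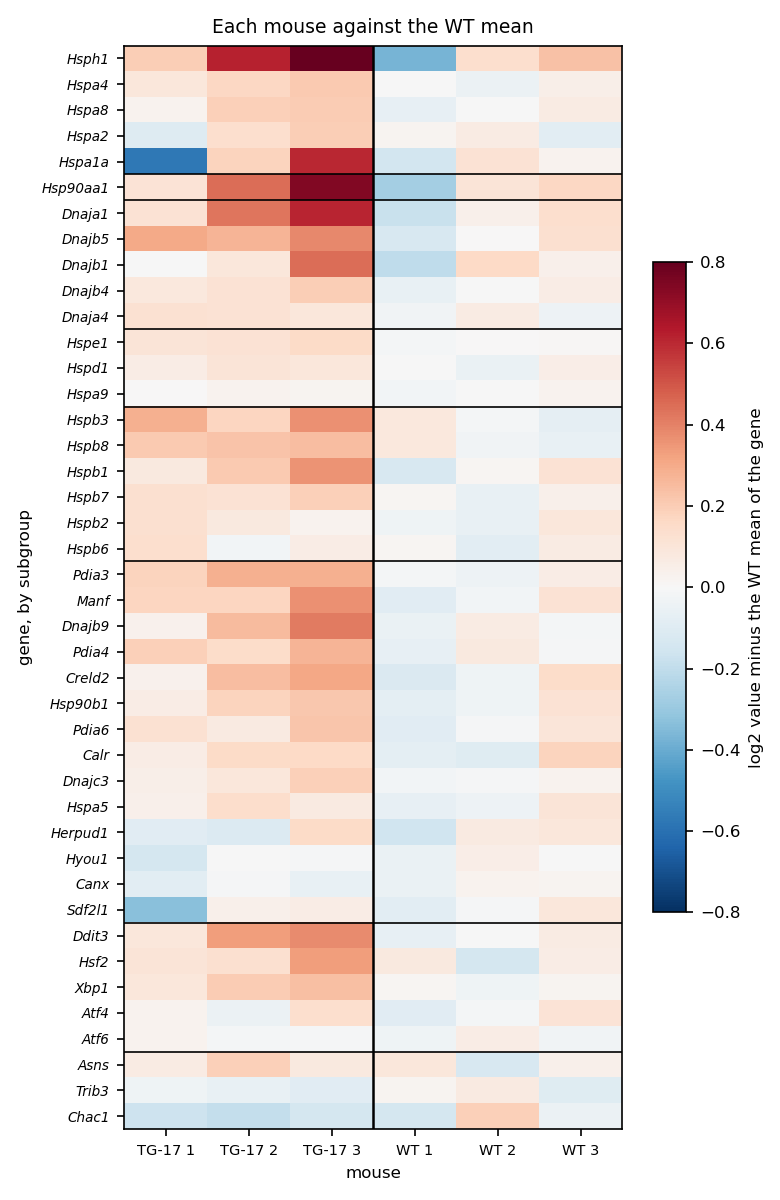
Each row is 1 of the 42 genes, by subgroup, and each column 1 mouse (TG-17 on the left, WT on the right). Colour gives the log2 value minus the WT mean of the gene, and the largest differences lie beyond the end of the colour scale. Hspa1a, Hsph1, Hsp90aa1 and Dnaja1 rise from TG-17 mouse 1 to TG-17 mouse 3, Hspa1a from below the WT mean to above it. The mitochondrial genes are pale in every column.

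The mitochondrial chaperones had the smallest median of the chaperone groups in the deposited values. The median of the 3 log2 fold changes was 0.08, and their pooled SD lay between 0.02 and 0.04. Hspe1, the lid of the mitochondrial chaperonin, read 11.49, 11.50 and 11.53 in TG-17 mice, against 11.37, 11.39 and 11.39 in WT mice. The groups did not overlap, and the log2 fold change was 0.12 ± 0.05, with an unadjusted p of 0.0349. Hspd1, the chaperonin barrel, had a log2 fold change of 0.08 and an unadjusted p of 0.157. Hspa9, the mitochondrial Hsp70 that pulls imported proteins into the matrix, read 12.73, 12.75 and 12.74 in TG-17 mice and 12.70, 12.72 and 12.75 in WT mice. Its groups overlapped, with a log2 fold change of 0.02 as deposited and of -0.04 after the second quantile normalization, which turned its direction. The median of the group was then 0.03, and no gene of it had an unadjusted p under 0.05.

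All 6 small heat shock protein genes had a higher mean in TG-17, by 0.06 to 0.27 on the log2 scale, around a median of 0.18. At an unadjusted p under 0.05, 3 of 6 were higher as deposited and 2 after the second quantile normalization, with a median of 0.11. Of the genes with a mean of 9 or above, 17.8% were higher at that p as deposited and 7.80% after that normalization. Over all genes it was 6.65% and 5.53%. Hspb3, a muscle-specific partner of Hspb2, read 7.89, 7.78 and 7.97 in TG-17 mice, against 7.69, 7.59 and 7.54 in WT mice. The groups did not overlap, and the log2 fold change was 0.27 ± 0.07, with an unadjusted p of 0.00928 and an adjusted p of 0.238 from limma.

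Hspb8, which works with Bag3 in the removal of damaged sarcomere proteins, read 11.95, 11.97 and 11.99 in TG-17 mice, against 11.83, 11.71 and 11.69 in WT mice. The TG-17 mice were close together and all above the WT mice, with a log2 fold change of 0.23 ± 0.06, an unadjusted p of 0.00707 and an adjusted p of 0.233 from limma. Hspb7, a heart-enriched member that binds filamin C, read 10.94, 10.93 and 11.01 in TG-17 mice and 10.83, 10.76 and 10.86 in WT mice. It did not overlap, and its log2 fold change was 0.14 ± 0.05 with an unadjusted p of 0.0365.

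The other small heat shock protein genes overlapped between the groups. Hspb1, which guards actin and filamin, read 10.47, 10.60 and 10.75 in TG-17 mice and 10.26, 10.41 and 10.51 in WT mice, with a log2 fold change of 0.22 and an unadjusted p of 0.0665. Hspb6 read 12.51, 12.36 and 12.44 in TG-17 mice and 12.39, 12.29 and 12.44 in WT mice, with a log2 fold change of 0.06. Hspb2 had a log2 fold change of 0.08.

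In the ER group, 10 of 14 genes had a higher mean in TG-17 and 4 a lower one. Their log2 fold changes ran between -0.08 and 0.25, around a median of 0.13. The 3 genes with an unadjusted p under 0.05 were Pdia3, Pdia4 and Manf, and all 3 kept it after the second quantile normalization, when the median of the group was 0.06. As deposited, 6.65% of all genes and 17.8% of those with a mean of 9 or above were higher at that p. Pdia3, a disulfide isomerase that works on glycoproteins with calnexin and calreticulin, read 11.20, 11.32 and 11.31 in TG-17 mice, against 11.01, 10.99 and 11.09 in WT mice. All TG-17 mice lay above all WT mice, and the log2 fold change was 0.25 ± 0.06, with the lowest unadjusted p of the 42 genes, 0.00506, and an adjusted p of 0.228 from limma.

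Pdia4, another disulfide isomerase, read 9.50, 9.46 and 9.58 in TG-17 mice and 9.24, 9.39 and 9.30 in WT mice. Its log2 fold change was 0.20 ± 0.06, with an unadjusted p of 0.0187 and no overlap. A second Pdia4 probe set, with a mean of 5.95 over the 6 mice, gave 0.04 ± 0.11. Manf, a secreted ER stress protein that acts on the cofactor cycle of Hspa5, read 8.47, 8.47 and 8.66 in TG-17 mice and 8.20, 8.27 and 8.41 in WT mice. Its log2 fold change was 0.24 ± 0.08, with an unadjusted p of 0.0292 and no overlap.

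The 7 ER genes with an ER stress element in their promoter had a median log2 fold change of 0.12, beside 0.13 for the whole ER group. Hspa5 (BiP), which holds the ER stress sensors inactive, read 12.14, 12.24 and 12.17 in TG-17 mice, against 12.04, 12.06 and 12.20 in WT mice. Its groups overlapped, and the log2 fold change was 0.08 ± 0.07, with an unadjusted p of 0.245. The 7 genes lay between -0.05 (Canx) and 0.20 (Creld2). Of them 0 had an unadjusted p under 0.05, where 6.65% of all genes were higher at that p. Hsp90b1, the Hsp90 of the ER, had 0.15, and the lectin chaperone Calr 0.12, against -0.05 for the lectin chaperone Canx. Herpud1, a part of ER-associated degradation, had a log2 fold change of -0.02, Hyou1 -0.05 and Sdf2l1 -0.08. For the other elements, the 11 genes read with a heat shock element of 2 units had a median of 0.12. Of these 11, 5 had an unadjusted p under 0.05, where 17.8% of genes with a mean of 9 or above were higher at that p. The 4 genes with the C/EBP-ATF core had a median of -0.04, and 0 of them had that p. No test between these groups was made.

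Of the 5 factors, Xbp1 and Ddit3 were higher in TG-17 at an unadjusted p under 0.05, beside 6.65% of all genes. Xbp1, the factor that Ire1 activates by splicing, read 9.66, 9.77 and 9.81 in TG-17 mice, against 9.58, 9.53 and 9.59 in WT mice. The groups did not overlap, and the log2 fold change was 0.18 ± 0.06, with an unadjusted p of 0.0225 that was 0.0782 after the second quantile normalization. The probe set does not tell spliced from unspliced Xbp1. Ddit3 (Chop), a death-promoting factor of the integrated stress response, read 7.97, 8.22 and 8.26 in TG-17 mice and 7.82, 7.88 and 7.95 in WT mice. TG-17 mouse 1 lay just above the highest WT mouse, and the log2 fold change was 0.27 ± 0.09, with an unadjusted p of 0.0229.

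Atf4 and Atf6 differed by less than their standard errors. Atf4 read 8.76, 8.69 and 8.87 in TG-17 mice and 8.65, 8.72 and 8.84 in WT mice, with a log2 fold change of 0.04 ± 0.08. Atf6 read 9.96, 9.92 and 9.93 in TG-17 mice and 9.90, 9.995 and 9.91 in WT mice, with a log2 fold change of 0.00047 ± 0.05. Both factors are controlled mostly after transcription, by translation and by cleavage, which an array of RNA does not measure. Hsf2, a heat shock factor, had a log2 fold change of 0.19 and an unadjusted p of 0.0845.

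The targets of Atf4 in the list gave differences of both signs. Chac1, which degrades glutathione, read 7.66, 7.63 and 7.68 in TG-17 mice, against 7.68, 8.01 and 7.77 in WT mice. All TG-17 mice lay below all WT mice, by a narrow margin, and the log2 fold change was -0.16 ± 0.09, with an unadjusted p of 0.119. Trib3, a pseudokinase that Ddit3 induces, had a log2 fold change of -0.06, and Asns, asparagine synthetase, 0.11. Their means over the 6 mice, 7.37 for Trib3 and 7.19 for Asns, lay close to those of 11 genes of other organs taken as a guide to background, 5.04 to 7.14. Hspa2, with a mean of 7.26, lay as close. Sdf2l1 at 7.58 and Hspb3 and Chac1 at 7.74 were not far above that range. The median of the 3 Atf4 targets was -0.06, and 0 of them had an unadjusted p under 0.05.

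**Figure D5:**
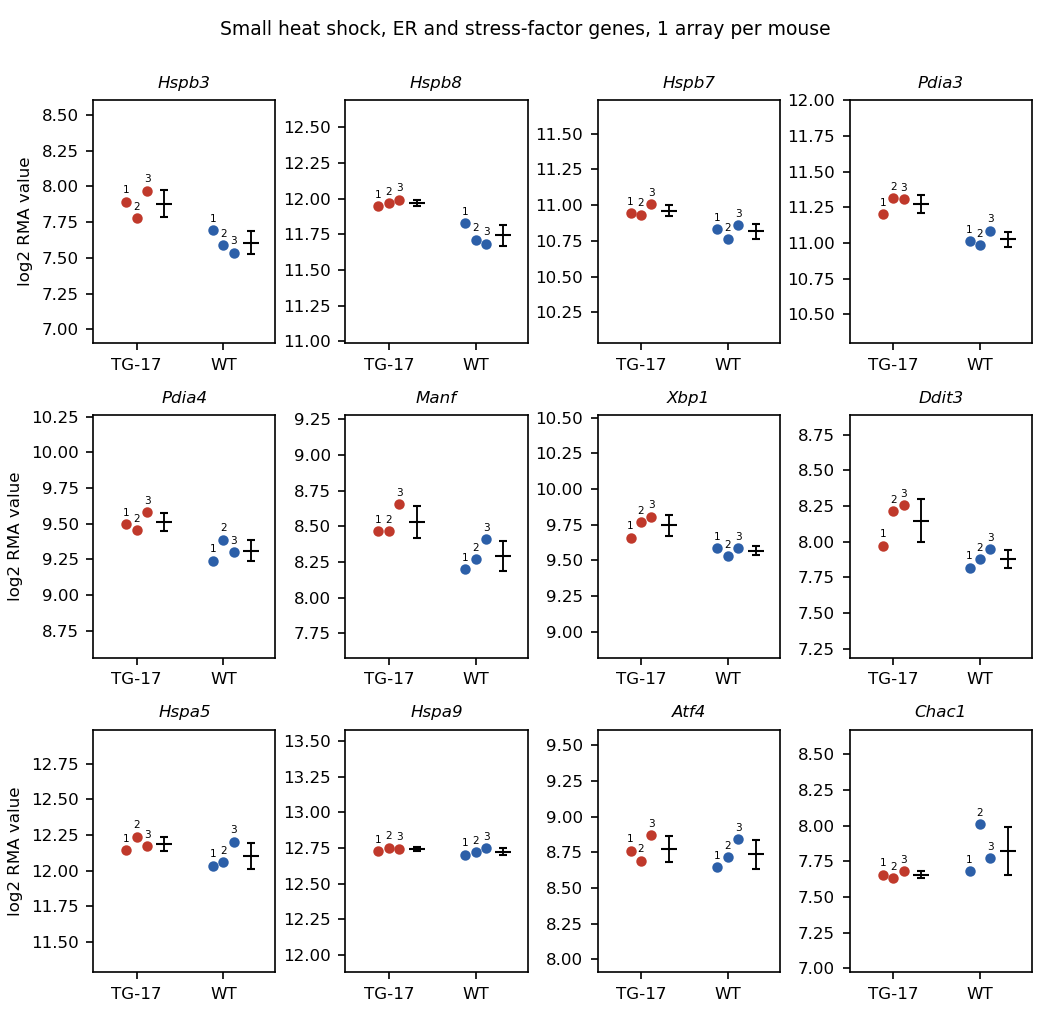
Log2 RMA values (vertical axis, each panel spanning the same range of log2 units) of 12 small heat shock protein, ER, mitochondrial and stress factor genes are plotted for the 3 TG-17 mice (red) and the 3 WT mice (blue), with the mean and SD in black. Hspb3, Hspb8, Hspb7, Pdia3, Pdia4, Manf, Xbp1 and Ddit3 do not overlap, and Hspa5, Hspa9 and Atf4 do.

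Set side by side, the median log2 fold changes as deposited were 0.15 for the 11 cytosolic genes, 0.08 for the 3 mitochondrial genes, 0.18 for the 6 small heat shock protein genes and 0.13 for the 14 ER genes. All genes with a mean of 9 or above had 0.05. After the second quantile normalization the medians were 0.11 for cytosolic, 0.03 for mitochondrial, 0.11 for small heat shock protein and 0.06 for ER genes. These medians are descriptions, and no test between the groups of genes was made. Across alternative settings, 4 genes had an unadjusted p under 0.05 in all 16 alternatives, among them each mouse left out in turn. These were Dnajb5 (0.25 to 0.38 with a mouse left out), Hspb3 (0.23 to 0.33), Hspb8 (0.20 to 0.27) and Pdia3 (0.23 to 0.28). The other 9 of the 13 genes lost that p in 1 or more of the alternatives. Hspe1 lost it with any 1 mouse left out while its log2 fold change stayed at 0.11 to 0.13, and Hspb7 kept it in 1 of 6 such fits, at 0.12 to 0.17. The number of the 42 genes higher in TG-17 at that p was 4 without TG-17 mouse 3 and 5 without WT mouse 1, and 17 without TG-17 mouse 1 as well as without WT mouse 3. It was 6 without TG-17 mouse 2 and 6 without WT mouse 2.

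Some heat shock genes have processed copies elsewhere in the genome, which bear on what a probe set reads. For 6 genes (Hspa8, Hsp90aa1, Dnaja1, Hspd1, Hspe1 and Hspb1) the chosen probe set was numbered among genes of another chromosome than that of the named gene. Probe sets of this array are numbered along the genome, so these may lie in such copies and read both. For Hspa8, the probe set numbered at the gene itself read 12.30, 12.52 and 12.31 in TG-17 mice and 12.02, 12.03 and 12.17 in WT mice. The groups did not overlap there, and the log2 fold change was 0.30 ± 0.08 with an unadjusted p of 0.00989. The 2 Hspa8 probe sets that also carry the symbols Snord14c and Snord14d had the opposite sign. Each gave -0.26 ± 0.18, with overlap and with an unadjusted p of 0.204 and 0.205. The direction of Hspa8 thus also depended on the probe set. For Dnaja1, the probe set numbered at the gene itself read 9.11, 9.29 and 9.25 in TG-17 mice and 9.26, 9.42 and 9.13 in WT mice. Its log2 fold change was -0.05 ± 0.09, so that the direction of Dnaja1 depended on the probe set. For Hspe1 it gave 0.08, for Hspd1 0.12 and for Hspb1 0.21, and Hsp90aa1 gave 0.42.

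Other genes of these pathways were counted in the same way. Of 130 listed, 127 were read, and 0 had a B above 0 in limma. At an unadjusted p under 0.05, 15 (11.8%) were higher and 2 (1.57%) lower in TG-17, against 6.65% and 8.76% of all genes. Of the genes within the range of means of the 42, 11.3% were higher at that p, and of those with a mean of 9 or above 17.8%. The median of the 127 log2 fold changes was 0.05, as it was for the genes with a mean of 9 or above. Of the 15, 8 were among the 32 cytosolic chaperones and cochaperones and 5 among the 14 subunits of the chaperonin TRiC and of prefoldin, which fold actin and tubulin.

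The cytosolic genes with the smallest p were Hspa1l, an Hsp70 of the same locus as Hspa1a (0.35 ± 0.09), Hsbp1, which binds heat shock factor trimers (0.18 ± 0.05), St13, an Hsp70 cochaperone (0.23 ± 0.07), and Ptges3, the Hsp90 cochaperone p23 (0.26 ± 0.09). The mean of Hspa1l over the 6 mice, 6.74, lay within the background range of the genes of other organs, 5.04 to 7.14. Of the TRiC subunits, Cct7 had 0.19 ± 0.06, Cct6a 0.18 ± 0.05, Tcp1 0.14 ± 0.05 and Cct8 0.18 ± 0.06. After the second quantile normalization 3 of the 32 and 1 of the 14 were higher in TG-17 at an unadjusted p under 0.05. Those lower numbered 1 of the 32 and 0 of the 14. Over all genes 5.53% were then higher and 6.71% lower, and of those with a mean of 9 or above 7.80% and 7.70%. Fkbp5, an Hsp90 cochaperone and target of the glucocorticoid receptor that was picked out after its values were seen, had the order of mice described for Hsph1. It read 8.46, 8.79 and 9.45 in TG-17 mice, against 7.93, 8.19 and 8.41 in WT mice, a log2 fold change of 0.73 ± 0.26 with an unadjusted p of 0.0317.

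The remaining lists are given beside 6.65% of all genes higher and 8.76% lower at that p, and no test between the lists was made. Of 36 ER sensors, folding and degradation genes, 0 were higher and 1, the Hspa5 cofactor Sil1, was lower in TG-17 at an unadjusted p under 0.05, with a log2 fold change of -0.18 ± 0.06. Of 15 mitochondrial genes, the protease Yme1l1 was higher (0.14 ± 0.06) and the protease Clpp lower (-0.16 ± 0.06). Of 30 genes of the integrated stress response, Cebpg, a partner of Atf4, was higher (0.19 ± 0.06), while Ddit4, an inhibitor of mTORC1, had 0.50 ± 0.21 and an unadjusted p of 0.0546. The median was 0.01 in the ER list, 0.03 in the integrated stress response list and 0.07 in the mitochondrial list. It was 0.15 for the TRiC and prefoldin subunits. For the 32 cytosolic chaperones and cochaperones it was 0.05, with 21 genes higher and 11 lower in TG-17.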

How the data were processed

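The deposited table holds log2 values for 6 arrays, made by the authors with RMA according to the submitters' processing notes, with the version not given in the sources used here. All 35556 probe sets were used as deposited, with 0 columns left out. Groups came from the sample labels, and the line, promoter and strain from the study's methods. Symbols came from the platform annotation, where 21789 probe sets had 1 symbol, 1621 several and 12146 none. The comparison of TG-17 with WT used the lmFit and eBayes functions of limma 3.58.1 under R 4.3.3 (assumed share of changed probe sets 0.01), with p adjusted by Benjamini and Hochberg over all probe sets, and the fit was tested on simulated data. Unadjusted p are limma's. The mice are separate animals, and the arrays give no counts, so their number limits the precision.

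The members and lists were chosen with earlier results of these data known. Values in every mouse are given for genes at an unadjusted p under 0.05 and, in each subgroup, for those with the largest difference and the highest mean, with a few others beside them. Of each list of other pathway genes up to 4 with the smallest p were named. Promoters and motifs were read with Python 3.11.15 from RefSeq windows. Tried beside this were leaving out dim probe sets (log2 value under 6), listed probe sets only, median centring, a second quantile normalization, robust moderation, an intensity trend, array weights, the mean over probe sets, a block for the replicate number and leaving out each mouse. A probe set at the gene's own locus was added after seeing the data.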

Additional observations from a re-analysis of the deposited data

How the results depend on the processing

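None of the 42 genes reached a B above 0 in any of 16 alternatives, by limma in each, beside 13 genes at an unadjusted p under 0.05. Over all probe sets, 130 were called, 287 with an intensity trend, 69 with the replicate number as a block and 29 to 112 with each mouse left out. The number of the 42 genes higher in TG-17 at an unadjusted p under 0.05 was 13, 24 after median centring, 7 after a second quantile normalization, 21 with an intensity trend and 4 to 17 with each mouse left out. The number lower was 0 to 1 with each mouse left out, the 1 being Chac1 without WT mouse 1. Of the other pathway genes, 15 were higher, 23 when only listed probe sets were tested, 39 after median centring, 6 after the second quantile normalization, 30 with the trend and 4 to 22 with each mouse left out. Those lower numbered 2, 0 after median centring, 0 with the block and 0 to 3 with each mouse left out. Over all genes, 6.65% were higher at that p as deposited and 5.53% after the second quantile normalization. That share is not given here for the other settings. The array medians were 6.89 to 6.91 in TG-17 and 6.93 to 6.95 in WT. Median centring therefore raised the difference of TG-17 minus WT for every gene, and its counts are not particular to these genes.

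After median centring the median log2 fold change was 0.13 for mitochondrial, 0.23 for small heat shock protein and -0.010 for integrated stress response genes. After the second quantile normalization it was 0.026 for mitochondrial genes, 0.11 for small heat shock protein genes and 0.075 over all 42. With each mouse left out the medians were 0.11 to 0.20 for Hsp70 and Hsp110, 0.28 to 0.59 for Hsp90, 0.10 to 0.27 for J-domain, 0.11 to 0.27 for all cytosolic, 0.057 to 0.11 for mitochondrial, 0.13 to 0.20 for small heat shock protein, 0.10 to 0.19 for ER, 0.12 to 0.22 for stress factor and -0.11 to -0.025 for integrated stress response genes, and 0.10 to 0.17 over all 42.

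Of 672 single-gene values, 654 kept their direction and 18, in 8 genes, did not. Many of the 654 could not have turned. Leaving out dim probe sets, listed probe sets only, the intensity trend, robust moderation and the replicate block leave a log2 fold change as it was. The own-locus probe set could change only 6 genes, and the mean over probe sets only the 8 genes with several. Median centring gave 0.00039 for Hyou1 and 0.035 for Herpud1, array weights gave 0.0034 for Herpud1, and the second quantile normalization gave -0.039 for Hspa9 and -0.059 for Atf6. The own-locus probe set, chosen after seeing the data, gave -0.052 for Dnaja1. With each mouse left out, the values crossed 0 for Hspa1a (-0.20 to 0.39), Sdf2l1 (-0.15 to 0.050), Herpud1 (-0.10 to 0.032), Atf4 (-0.0087 to 0.093) and Atf6 (-0.016 to 0.030). The causes were not tested.

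The sample labels number the mice but state no pairing. Deviations of same-numbered mice correlated at 0.024, -0.00044 and 0.057 over all probe sets. Over the 42 genes alone these correlations were 0.59, -0.04 and 0.36, and those of differently numbered mice lay between -0.67 and 0.49. With 3 mice per group these values do not settle whether the mice were paired. With the replicate number as a block, 0 of the 42 genes had a B above 0. The unadjusted p from limma with that block was 0.00135 for Hsph1, 0.00353 for Hsp90aa1 and 0.00337 for Dnaja1. It was 0.0538 for Hspa4, 0.0536 for Hspb7 and 0.0756 for Hspe1.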
